A study of Mus musculus with 6 samples.

Results

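The genes described here are the DNAJ co-chaperones and the cytosolic heat shock proteins in cultured primary epithelial cells of the mouse proximal tubule, the kidney segment that reclaims most of the filtered solute. Members were chosen by gene symbol alone: every Dnaj, Hspa and Hspb symbol of the deposited table except Hspa5, Hspa9, Hspbp1, Hspbap1 and pseudogenes, plus Hsp90aa1, Hsp90ab1, Hsph1, Hsf1, Hsf2 and Bag3. This gave 70 of the 24421 rows, 45 of them DNAJ genes. Of the 70, 59 reached at least 1 FPKM (fragments per kilobase of gene length, with library size scaled out) in at least 3 of the 6 libraries and were tested.

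Both groups of 3 libraries had received 20 µM erastin2 for 24 h, a compound that blocks cystine import through system xc- and can cause ferroptosis. The groups differed in the genotype label, Atg5F/F or Atg5KO. Atg5 encodes a protein of the conjugation machinery that builds autophagosomes. The series has no untreated cells in the samples used here, so whether a genotype difference exists before the drug or arises under it cannot be told apart. All libraries carry the same batch date. The labels name no animal or culture for a replicate and do not say how or where Atg5 was deleted, so the p-values below rest on the spread among these libraries alone, and that spread may be technical.

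Cells keep proteins folded with HSP70 and HSP90, chaperones that bind and release client proteins at the cost of ATP. DNAJ proteins, also called HSP40s or J-domain proteins, deliver clients to HSP70 and stimulate its ATPase, while HSP110 proteins and BAG proteins release the nucleotide and small heat shock proteins hold unfolded clients without ATP. When unfolded protein accumulates in the cytosol, the transcription factor HSF1 trimerises and binds heat shock elements, inverted repeats of the letters GAA and TTC, in the promoters of many of these genes.

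The label check and the cell type check came first. Atg5 went against its label, since it was higher where the label says Atg5KO. It stood at 8.76, 8.95 and 7.94 FPKM in the Atg5F/F libraries 1 to 3 and at 13.3, 11.5 and 12.7 FPKM in the Atg5KO libraries 1 to 3 (log2 fold change 0.50). A whole-gene level does not reveal the loss of single exons, so the groups are called F/F-labelled and KO-labelled below and every direction rests on those labels. The FPKM values imply 15528454 to 30004933 reads per library. Of 13 proximal tubule markers 6 were tested, and Hnf4a (-0.88), Lrp2 (-0.60) and Ggt1 (-1.20) were lower and Aqp1 (0.35) higher in KO-labelled libraries. Their summed level was 490.9 to 515.5 FPKM in F/F-labelled and 414.8 to 444.2 FPKM in KO-labelled libraries, and the transporter gene Slc22a8 was listed at 0 in all 6. Markers of other cells were low: summed levels reached at most 0.39 FPKM for 6 fibroblast genes, 10.0 FPKM for 5 endothelial genes (Kdr alone tested, and lower in KO-labelled libraries at -0.63), 7.78 FPKM for 5 leukocyte genes (Csf1r alone tested and not called, Adgre1 and Cd3e at 0), 0.10 FPKM for 4 thick limb and distal genes, 1.16 FPKM for 4 collecting duct genes (Aqp2 at 0) and 3.26 FPKM for 3 podocyte genes (Podxl alone tested, and higher at 0.58). The endothelial sum was 8.49 to 10.0 against 5.27 to 6.56 FPKM and the podocyte sum 1.5 to 1.66 against 2.55 to 3.26 FPKM. The part of these marker differences in the results below was not tested, and in bulk RNA fewer cells of a type and less RNA per cell cannot be told apart.

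Chaperone genes went in both directions, led by increases of Dnajc9, Hspb1 and Dnajb4 and decreases of Dnajc22 and Hspb8. By limma's moderated test at a Benjamini-Hochberg adjusted p under 0.05, 13 members were higher and 10 lower in KO-labelled libraries, and 36 were not called. Without KO-labelled library 1 or F/F-labelled library 3 the count of lower members was 5 or 6. The background was 39.2% of all 11559 tested genes called in either direction, 21.3% higher and 17.9% lower, and the members' share of calls was near it. The median log2 fold change was 0.02 over the members and 0.02 over all tested genes. Fold changes throughout are KO-labelled minus F/F-labelled with 1 FPKM added before the log2, so that changes of low genes appear smaller than they are. Among the 23 called members the median absolute value was 0.23, beside 0.27 over all called genes, and 3 called members (Dnajc9, Dnajc22 and Hspb8) reached an absolute value of 0.5. For 28 of the tested members the 2 groups were fully apart, 17 with the KO-labelled libraries above and 11 below, where all tested genes gave 51.9%, 28.7% above and 23.2% below. By the authors' deposited table an FDR under 0.05 belonged to 27 of the 59, a share to be read beside 41.2% of all tested genes. The 23 members called here were all among those 27 and had the same sign there.

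**Figure D1:**
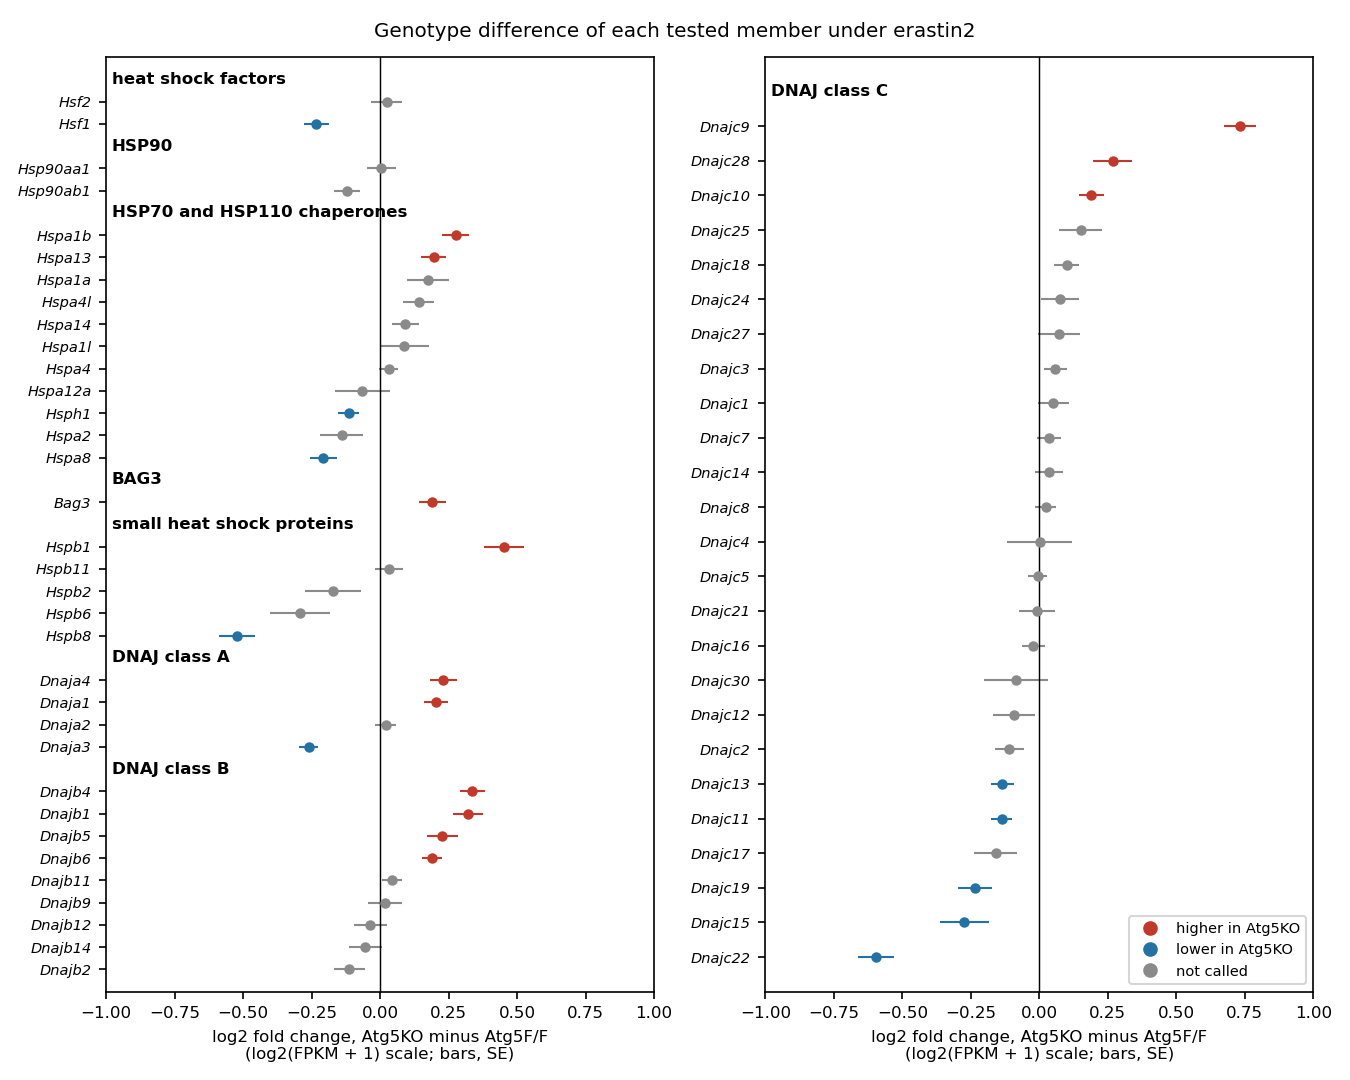
Log2 fold change (horizontal axis, KO-labelled minus F/F-labelled, log2(FPKM + 1) scale) of the 59 tested members by role, with bars for the SE. Red points (13) were higher, blue points (10) lower and grey points (36) not called, and the ends of the scale are Dnajc9 at 0.73 and Dnajc22 at -0.60.

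Total chaperone message was dominated by a few genes. Hspa8, Hsp90ab1 and Hsp90aa1 alone held 48.2% to 52.5% of the summed FPKM of the 70 members, depending on the library. The sum over all members was 3072.0, 3046.4 and 3077.9 FPKM in F/F-labelled libraries 1 to 3 and 2987.6, 2993.2 and 2976.9 FPKM in KO-labelled libraries 1 to 3. The FPKM sum of all genes was lower as well, at 376235 to 377916 without overlap against 357774 to 369576, so the members' share of it overlapped between the groups (0.806% to 0.817% against 0.810% to 0.832%). By role, the HSP70 and HSP110 sum was 942.4, 965.1 and 955.6 against 850.6, 877.4 and 867.5 FPKM, and the HSP90 sum 899.2, 852.4 and 863.9 against 820.7, 810.6 and 828.0 FPKM. The small heat shock protein sum went the other way, at 194.2, 187.7 and 201.5 against 235.1, 245.6 and 212.7 FPKM, as did DNAJ class B, at 248.4, 247.9 and 258.0 against 280.7, 271.6 and 273.3 FPKM. None of these 4 role sums overlapped between the groups, while those of class A and class C DNAJ genes did. As shares of the FPKM of all genes, HSP70 and HSP110 (0.250% to 0.255% against 0.231% to 0.242%), small heat shock proteins and class B remained apart, and HSP90 overlapped (0.226% to 0.239% against 0.219% to 0.231%). Role sums follow their most abundant genes and do not give the direction of a whole role. Hspa8 held most of the HSP70 and HSP110 sum (means 728.7 against 630.9 FPKM), while the median log2 fold change of that role was 0.09. Hspb1 held most of the small heat shock protein sum (means 131.2 against 180.1 FPKM), while the median of that role was -0.17.

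**Figure D2:**
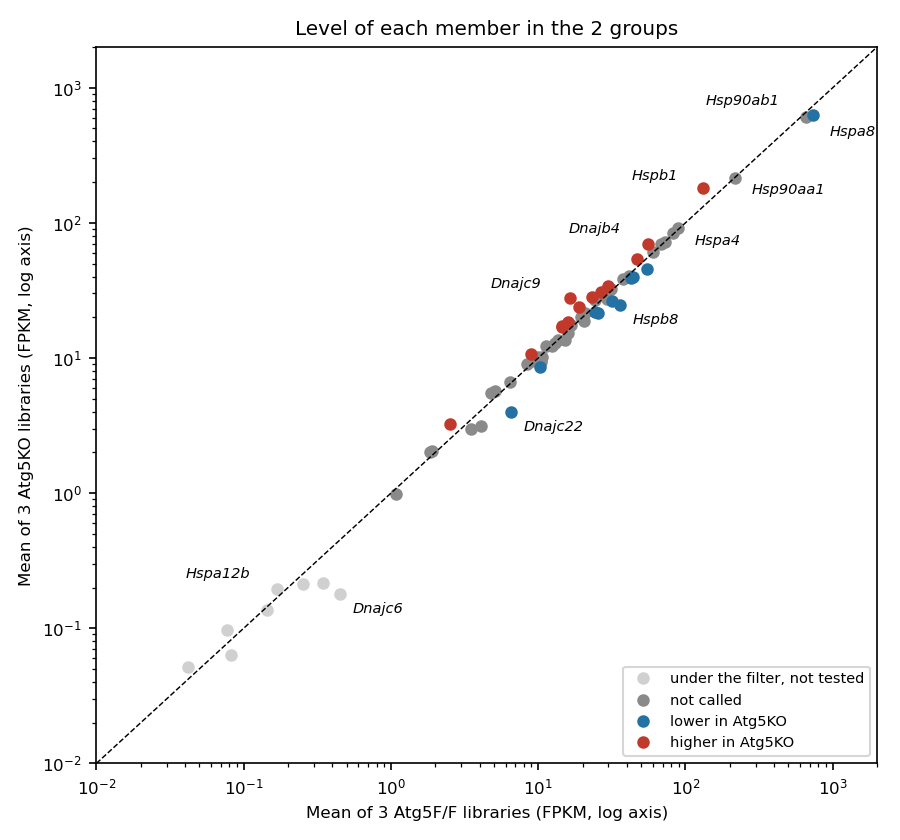
Mean FPKM of each member in the 3 F/F-labelled libraries (horizontal, log axis) and the 3 KO-labelled libraries (vertical, log axis), with the line of equal levels dashed. Members at 0 in either mean are not drawn, and most points lie close to the line, up to Hspa8 at the top right.

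Both tested heat shock factors are transcription factors, and 1 of them differed. Hsf1, the master regulator of the cytosolic heat shock response (chromosome 15, 76477422 to 76501913 in GRCm38), was at 24.6, 25.1 and 26.6 FPKM in F/F-labelled libraries and at 21.1, 22.5 and 21.0 FPKM in KO-labelled libraries. All 3 KO-labelled values were below all F/F-labelled ones, and Hsf1 fell by 0.23 on the log2 scale (SE 0.046, limma adjusted p = 0.0044). Hsf2, a factor that can pair with HSF1, was at 10.2, 9.67 and 10.1 against 10.8, 9.44 and 10.3 FPKM. These overlapped (0.02, limma adjusted p = 0.76). Messenger RNA levels do not report the activity of HSF1, which is set largely on the protein.

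An inducible HSP70 gene rose and the constitutive one fell. Hspa1b, which encodes inducible HSP70 (chromosome 17, 34956436 to 34959238), was at 22.9, 23.7 and 22.9 FPKM in F/F-labelled and at 26.4, 28.9 and 29.5 FPKM in KO-labelled libraries. The groups did not overlap (0.28, SE 0.049, limma adjusted p = 0.0025). Its near-identical neighbour Hspa1a (chromosome 17, 34969190 to 34972156) was at 4.75, 4.79 and 4.77 against 4.93, 5.47 and 6.20 FPKM. The groups were again apart, but the wider spread of the KO-labelled values left it uncalled (0.17, limma adjusted p = 0.099). Of the 50-base windows of the Hspa1a exons 66.3% also occur in another gene, mostly Hspa1b, and of those of Hspa1b 62.3%. The split of reads between both genes is therefore uncertain. Their sum, which does not depend on the split as far as reads went to either, was 27.7, 28.5 and 27.7 against 31.3, 34.4 and 35.8 FPKM.

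Hspa8, the constitutive HSC70 that also uncoats clathrin and carries clients into chaperone-mediated autophagy, was the most abundant member (chromosome 9, 40800984 to 40810087). It stood at 714.7, 741.9 and 729.5 FPKM in F/F-labelled libraries and at 618.9, 644.4 and 629.5 FPKM in KO-labelled libraries. No value overlapped, and Hspa8 fell by 0.21 (SE 0.048, limma adjusted p = 0.0097). Quantile normalization ended that call (-0.05, limma adjusted p = 0.40), as did testing without a filter on low values (limma adjusted p = 0.055), and 39.4% of its exon windows recur in other genes, many of them processed pseudogenes. Hsph1, an HSP110 that acts as a nucleotide exchange factor of HSP70, was at 42.1, 41.7 and 44.4 against 39.8, 39.0 and 39.4 FPKM (fell by 0.11, limma adjusted p = 0.041). That call was lost when any of 5 of the 6 libraries was left out. Hspa4, the most abundant HSP110 relative, was at 91.0, 87.2 and 89.9 against 92.5, 89.8 and 91.8 FPKM and was not called (0.03, limma adjusted p = 0.51). Hspa13, an HSP70-like protein of the endoplasmic reticulum, rose (0.20). The other tested members of this class, Hspa2, Hspa4l, Hspa12a, Hspa14 and Hspa1l, were not called, with log2 fold changes from -0.14 to 0.14.

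HSP90 genes did not pass the test. Hsp90aa1, the inducible cytosolic HSP90, was at 229.8, 204.2 and 212.5 against 222.9, 208.8 and 216.1 FPKM (0.00, limma adjusted p = 0.96). Hsp90ab1, the constitutive form, was at 669.4, 648.3 and 651.4 against 597.8, 601.8 and 611.9 FPKM. All 3 KO-labelled values of Hsp90ab1 were below the F/F-labelled ones, yet it missed the threshold (-0.12, limma adjusted p = 0.070). It was called in 4 other settings, among them voom on the recovered reads (limma adjusted p = 0.0078), whereas quantile normalization put it at 0.00 (limma adjusted p = 0.96). Of the exon windows of Hsp90aa1, 47.5% recur elsewhere.

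Among the small heat shock proteins the largest pair of differences had opposite signs. Hspb1 (HSP25, the mouse HSP27, an actin-stabilising holdase on chromosome 5, 135887919 to 135889563) was at 132.5, 121.9 and 139.1 FPKM in F/F-labelled and at 181.9, 195.3 and 163.0 FPKM in KO-labelled libraries. Each KO-labelled library was above each F/F-labelled one (0.45, SE 0.072, limma adjusted p = 0.0015). A pseudogene, Hsp25-ps1, holds copies of much of its sequence, and 50.1% of the exon windows of Hspb1 are shared. Hspb8, the partner of BAG3 in delivering aggregated protein to selective autophagy (chromosome 5, 116408491 to 116422864), was at 33.2, 38.0 and 36.1 against 26.6, 23.0 and 24.2 FPKM. It fell by 0.52 (SE 0.065, limma adjusted p = 3.8e-04) without overlap, and none of its exon windows is shared. Bag3 itself, the HSP70 exchange factor of that complex (chromosome 7, 128523616 to 128546981), was at 44.5, 49.7 and 46.5 against 51.3, 55.0 and 54.6 FPKM. It rose by 0.19 (SE 0.049, limma adjusted p = 0.015), so that the partners of this complex moved in opposite directions. The Bag3 call was lost without F/F-labelled library 1 (limma adjusted p = 0.052) or library 3 (limma adjusted p = 0.055). Hspb2, Hspb6 and Hspb11, grouped here by symbol alone, were not called, and the lowest of them was Hspb6 at -0.29 (limma adjusted p = 0.060). Cryab, also a small heat shock protein but outside the symbol rule, was more abundant than any member, at 1926 ± 94 against 1937 ± 241 FPKM (SD, n = 3), and was not called (0.00). Hspb2 exons overlap those of Cryab on the opposite strand over 30.2% of their length.

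**Figure D3:**
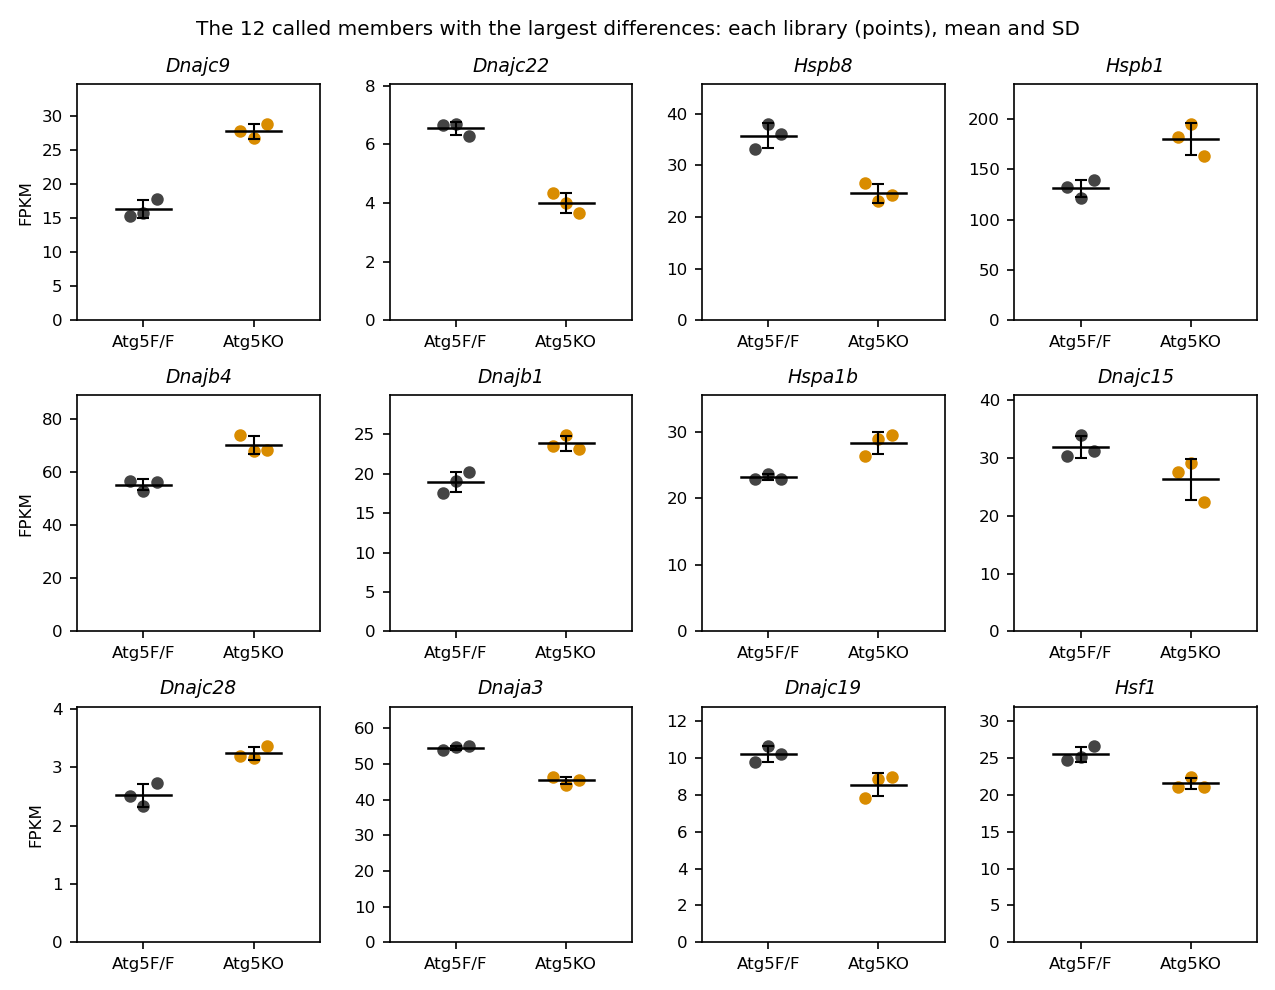
FPKM (vertical axis, from 0) of each library as a point, with mean (line) and SD (bars) of the 3 F/F-labelled (grey) and 3 KO-labelled (orange) libraries, for the 12 called members with the largest absolute log2 fold change. The groups are apart in all 12 panels, and the KO-labelled Dnajc15 points have the widest relative spread among the members that fell.

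DNAJ genes are sorted into classes A, B and C by their domains: class A keeps the zinc finger of bacterial DnaJ, class B lacks it, and class C shares only the J domain. Of the 38 tested, 9 were higher and 6 lower in KO-labelled libraries, a called share of 39.5% beside 39.2% of all tested genes. Counts by class and cell site are given as a description, beside 21.3% higher and 17.9% lower over all tested genes. Of the 8 tested class A and B genes of the cytosol and nucleus, 6 were higher and 0 lower, with a median log2 fold change of 0.22, and the counts were the same in each alternative except a stricter adjusted p of 0.01 (5 higher). With class C included, the 20 tested DNAJ genes of the cytosol, nucleus or other sites had 7 higher and 2 lower, with a median of 0.03. Of the 7 tested mitochondrial DNAJ genes, 1 was higher and 4 lower, with a median of -0.14. That count of 4 lower was less stable: it was 2 without F/F-labelled library 2 and 1 without F/F-labelled library 3 or KO-labelled library 1, with medians of -0.14, -0.12 and -0.13. Over all DNAJ genes, 2 were lower without either of the last libraries named. The mitochondrial count was also 1 at a stricter adjusted p of 0.01. It was 3 with the length trend removed, with no filter and with no variance trend. Of the 11 in the endoplasmic reticulum, 1 was higher and 0 lower (median 0.04).

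Most class A and B partners of cytosolic HSP70 that were tested rose. Dnajb4 (chromosome 3, 152178511 to 152210302), a class B partner of HSP70, was at 56.7, 52.8 and 56.3 FPKM against 74.0, 68.1 and 68.2 FPKM (0.34, SE 0.047, limma adjusted p = 7.0e-04). Dnajb1, the canonical stress-inducible HSP40 (chromosome 8, 83608193 to 83612653), was at 17.6, 19.1 and 20.2 against 23.6, 24.9 and 23.1 FPKM (0.32, SE 0.055, limma adjusted p = 0.0022). In both genes each KO-labelled library exceeded each F/F-labelled one. Dnaja4 (0.23), Dnajb5 (0.23), Dnaja1 (0.20) and Dnajb6 (0.19), the last a strong suppressor of polyglutamine aggregation, also rose. Of the exon windows of Dnaja1 20.6%, and of those of Dnajb6 21.0%, recur in other genes. Dnaja4 exons overlap those of Wdr61 on the opposite strand over 44.1% of their length, and the strand setting of the counting is not given in the sources used here. Wdr61 was not called (0.12). Dnaja2, the most abundant DNAJ member, was at 82.1, 82.6 and 83.5 against 86.7, 80.7 and 84.5 FPKM and was not called (0.02, limma adjusted p = 0.70). Dnajb2, a ubiquitin-binding DNAJ, was the other one of the 8 that was not called (-0.11).

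Mitochondrial DNAJ genes were mostly lower. Dnaja3 (TID1), the class A partner of the mitochondrial HSP70, was at 53.8, 54.7 and 55.1 FPKM against 46.3, 44.2 and 45.6 FPKM. The groups were far apart relative to their spread (fell by 0.26, SE 0.035, limma adjusted p = 6.0e-04). Dnajc15, a J protein of the import motor in the inner membrane, was at 30.4, 34.0 and 31.2 against 27.5, 29.1 and 22.3 FPKM (fell by 0.27, SE 0.089, limma adjusted p = 0.038). KO-labelled library 3 was the low point, and without it the value was -0.16 and no longer called. The Dnajc15 call held under leave-one-out in a single case, without KO-labelled library 2. Dnajc19, another import motor subunit, was at 9.79, 10.6 and 10.2 against 7.83, 8.83 and 8.98 FPKM (fell by 0.23, SE 0.061, limma adjusted p = 0.016), and Dnajc11, a component tied to cristae organisation, fell by 0.14. Dnajc28 went the other way from a low level, at 2.51, 2.33 and 2.72 against 3.18, 3.16 and 3.36 FPKM (0.27, limma adjusted p = 0.017). Dnajc4 (0.00) and Dnajc30 (-0.09) were not called, with overlapping groups.

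In the endoplasmic reticulum the values of the DNAJ genes and of the HSP70 and HSP90 of that site stood apart. Hspa5 (BiP), which lies outside the symbol rule, was at -0.59 and Hsp90b1 (GRP94) at -0.64, both called lower. Of the 11 DNAJ genes at that site, 1, Dnajc10 (ERdj5, a disulphide reductase in degradation), was called, and it rose (0.19). The BiP partners Dnajb9 (0.02), Dnajb11 (0.04) and Dnajc3 (0.06) and the membrane-anchored Dnajb12 were not called. Dnajb12, among the 2 most abundant class B genes, was at 38.0, 42.5 and 43.0 against 38.0, 42.8 and 39.6 FPKM (-0.04, limma adjusted p = 0.67). The others at that site (Dnajb14, Dnajc1, Dnajc14, Dnajc16, Dnajc18 and Dnajc25) were between -0.05 and 0.15. The difference in response between BiP and its DNAJ partners was not tested.

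The extremes of the tested members were both class C genes outside these sites. Dnajc9, a histone H3 and H4 co-chaperone that works with HSP70 in nucleosome assembly (chromosome 14, 20384638 to 20388910), was at 15.4, 15.8 and 17.8 FPKM in F/F-labelled and at 27.8, 26.7 and 28.9 FPKM in KO-labelled libraries. It had the largest difference of any tested member (0.73, SE 0.058, limma adjusted p = 3.6e-05), with a wide gap between the groups. Dnajc22, a membrane J protein (chromosome 15, 99093170 to 99104737), was at 6.66, 6.70 and 6.28 against 4.33, 4.00 and 3.66 FPKM and fell by 0.60 (SE 0.067, limma adjusted p = 2.3e-04). Neither gene's groups overlapped. Dnajc13 (RME-8, an endosomal J protein) fell by 0.13. The 2 most abundant class C genes barely differed: Dnajc5, the cysteine string protein, was at 72.6, 72.2 and 73.7 against 73.8, 71.3 and 72.4 FPKM (-0.01), and Dnajc8, a spliceosome component, at 70.5, 66.7 and 67.8 against 71.3, 69.5 and 67.7 FPKM (0.02). Dnajc2, Dnajc7, Dnajc12, Dnajc17, Dnajc21, Dnajc24 and Dnajc27 were not called either, between -0.16 and 0.08.

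The 11 members under the filter were Dnajb3, Dnajb7, Dnajb8, Dnajb13, Dnajc5b, Dnajc5g, Dnajc6, Hspa12b, Hspb3, Hspb7 and Hspb9, none above 0.52 FPKM in any library. Dnajc5g and Hspb3 were listed at 0 in all 6 libraries, that is, at 0 reads. A count of 0 still allows an expected number of up to 3 reads per library, for counting error only. Dnajc6, auxilin, which recruits HSC70 to clathrin coats, was singled out after its values were seen. It was at 0.518, 0.483 and 0.344 FPKM in F/F-labelled and at 0.226, 0.190 and 0.123 FPKM in KO-labelled libraries, from 87 reads at most to 12 at least. The groups did not overlap, and with no filter on low values it was called lower (-0.29, limma adjusted p = 0.014). The added 1 FPKM makes that value small. Without it, the log2 ratio of the Dnajc6 group means was -1.32, beside 0.77 for Dnajc9. The authors' deposited table gave Dnajc6 a log2 fold change of -1.34 (authors' FDR 1.5e-06).

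Promoter sequence was compared because it is the element through which HSF1 acts. RefSeq gives 1 or more windows from 250 bases before to 50 bases after a start, on GRCm38.p6, for 56 of the 70 members. Among those without a window were the lower Dnajc11, Dnajc22, Hsf1 and Hspa8, the higher Hspa13 and the uncalled Hsp90aa1 and Hsp90ab1. Their promoters could not be searched, so the counts below leave these genes out. The letters searched, on both strands and each its own reverse complement, were GAANNTTC and TTCNNGAA (2 units, head to head or tail to tail); in the 3-unit form both overlap, a further GAA or TTC following after NN. A 2-unit match occurred in 15.1% of 32851 promoters of this length and in 13.8% of the 8748 tested genes with a promoter. Among members it occurred in 15 of 56 (26.8%): in 8 of 12 higher, 2 of 6 lower (Hsph1 and Hspb8), 3 of 28 not called and 2 of 10 under the filter. A gene was counted if any of its windows matched, and the windows per gene were unequal. Of the higher members, Dnaja1 and Dnajb5 had 3 windows, and Dnaja4, Dnajb1, Dnajb4 and Dnajb6 had 2. Hsph1 among the lower, and Dnajb2, Dnajc4, Dnajc7, Dnajc14, Hspa12a and Hspb6 among those not called, also had 2. These counts therefore do not rest on equal lengths of sequence. The 3-unit form occurred only in Dnajb6 and Hsph1, that is, in a member that rose and in one that fell, and in 0.603% of all promoters. Dnajb1, a textbook heat shock gene, had no match in either of its 2 windows, which says only that these letters are absent there. A match is a description of letters, and the members were chosen as chaperones, so no test was made. The sequences that follow show matches of 5 of the 8 higher members, those whose window touched no annotated exon, with the letters GAA and TTC in capitals, 5′ to 3′ on the gene's strand, and the Hspa1a copy of the Hspa1b match (Bag3, Dnaja1, Dnajb6 and a further Dnaja4 match are not printed, since they lie in or next to transcribed sequence):
Hspa1b, chr17:34959325-34959352, minus strand: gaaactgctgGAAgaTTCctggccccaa
Hspa1a, chr17:34972243-34972270, minus strand: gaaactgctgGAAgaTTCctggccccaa
Hspb1, chr5:135887792-135887819, plus strand: ttcaacaagaGAAgtTTCcagatggggg
Hspb1, chr5:135887812-135887839, plus strand: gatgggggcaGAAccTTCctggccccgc
Dnaja4, chr9:54699459-54699486, plus strand: gaacctccgcGAAcgTTCtgggcctatg
Dnajb4, chr3:152193846-152193869, minus strand: tcgttcgctgTTCtaGAAagtaca
Dnajc10, chr2:80315274-80315301, plus strand: acaattttatTTCtaGAAaactttaatt

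The Hspa1a and Hspa1b promoters carried the same letters at 247 of the 250 positions before the start (98.8%), and the uncertain split of reads between both genes, given above, leaves their separate levels uncertain too. Hspb6, which was not called and had its 3 KO-labelled values within or below the F/F-labelled range, also held a match, as did Hspb8, which fell. Of the 13 tested members with a match, 8 were higher, 2 lower and 3 not called. As a further element, the endoplasmic reticulum stress element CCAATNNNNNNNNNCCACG was found in 1 member, Dnajc3 (0.119% of all promoters), which was not called.

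**Figure D4:**
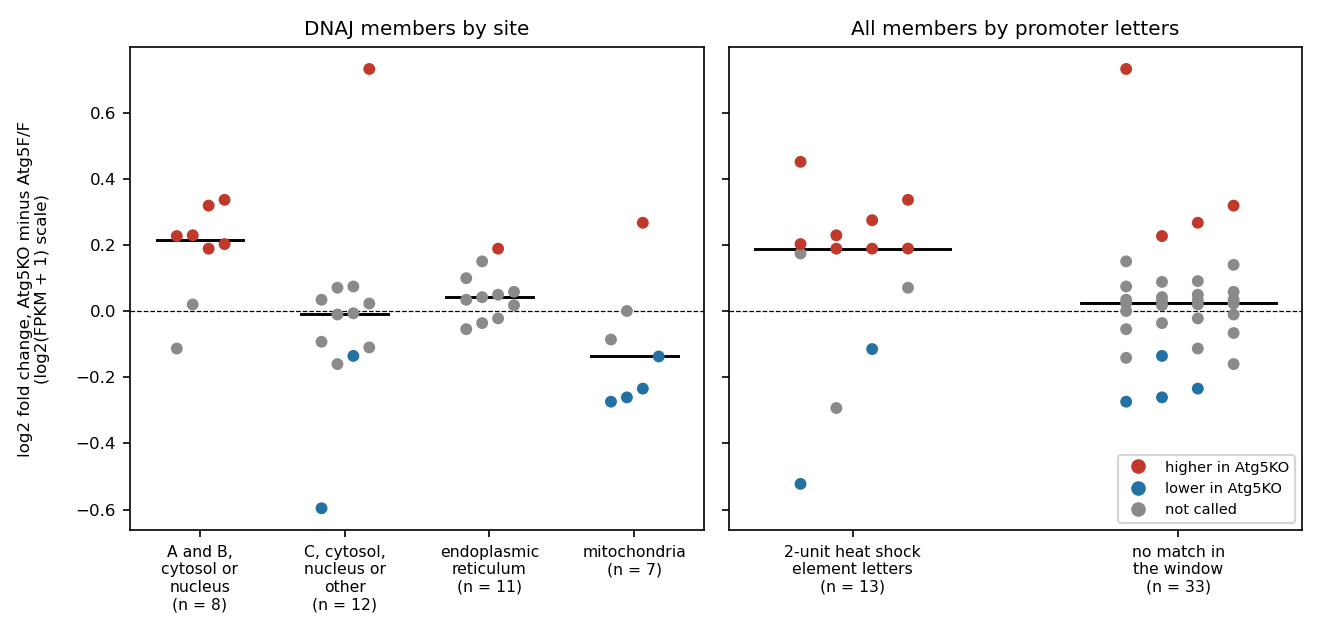
Log2 fold change (vertical axis, KO-labelled minus F/F-labelled, log2(FPKM + 1) scale) of tested DNAJ members by class and cell site (left) and of all tested members with a RefSeq promoter by the presence of a 2-unit match (right), with medians as lines. Class A and B genes of the cytosol or nucleus lie mostly above 0 and mitochondrial ones mostly below, and members with a match are spread from Hspb8 at -0.52 to Hspb1 at 0.45.

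Partners of the family were read from lists of known genes, whose counts stand beside 39.2% of all tested genes called, 21.3% higher and 17.9% lower. Of 12 tested HSP70 exchange factors and adaptors, 25% were called: 2 were higher (Tomm34 at 0.33, Bag4 at 0.24) and 1 lower (St13, the HIP co-chaperone, at -0.19), with a median of -0.04. Of 19 HSP90 co-chaperones none was higher and 6 were lower, 31.6% in all, with a median of -0.01. Fkbp5, the immunophilin of steroid receptor complexes, went from 42.1 ± 2.2 to 31.8 ± 1.1 FPKM (SD, n = 3; fell by 0.39), Aarsd1 fell by 0.25 and the phosphatase gene Ppp5c by 0.20. The cytosolic chaperonin and prefoldin, which fold actin and tubulin, had 6 of 14 lower and none higher (median -0.11), led by Cct7, from 121.6 to 102.5 FPKM (fell by 0.24), Pfdn4 (-0.23) and Pfdn1 (-0.19). Of 4 other J-domain genes, Hscb (-0.24) and Gak (-0.11) were lower.

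Textbook HSF1 targets went both ways. Of 26 tested, 6 were higher and 8 lower, 53.8% in all beside 39.2% of all tested genes, with a median of -0.04. Of the 26, 13 are members of the family. The 13 that are not members had none higher and 5 lower (Fkbp4, Hspd1, Serpinh1, Ahsa1 and Cct2), with a median of -0.12. These 38.5% called were all lower, where 21.3% of all tested genes were higher and 17.9% lower. The increases on that list were thus all in Hspb1, Dnajb4, Dnajb1, Hspa1b, Dnaja1 and Bag3. The HSP70 and HSP90 systems of the organelles had 8 of 12 lower and 1 higher (Grpel2), with a median of -0.20, and Hsp90b1, Hspa5 and the nucleotide exchange factor gene Hyou1 (-0.49) fell most.

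**Figure D5:**
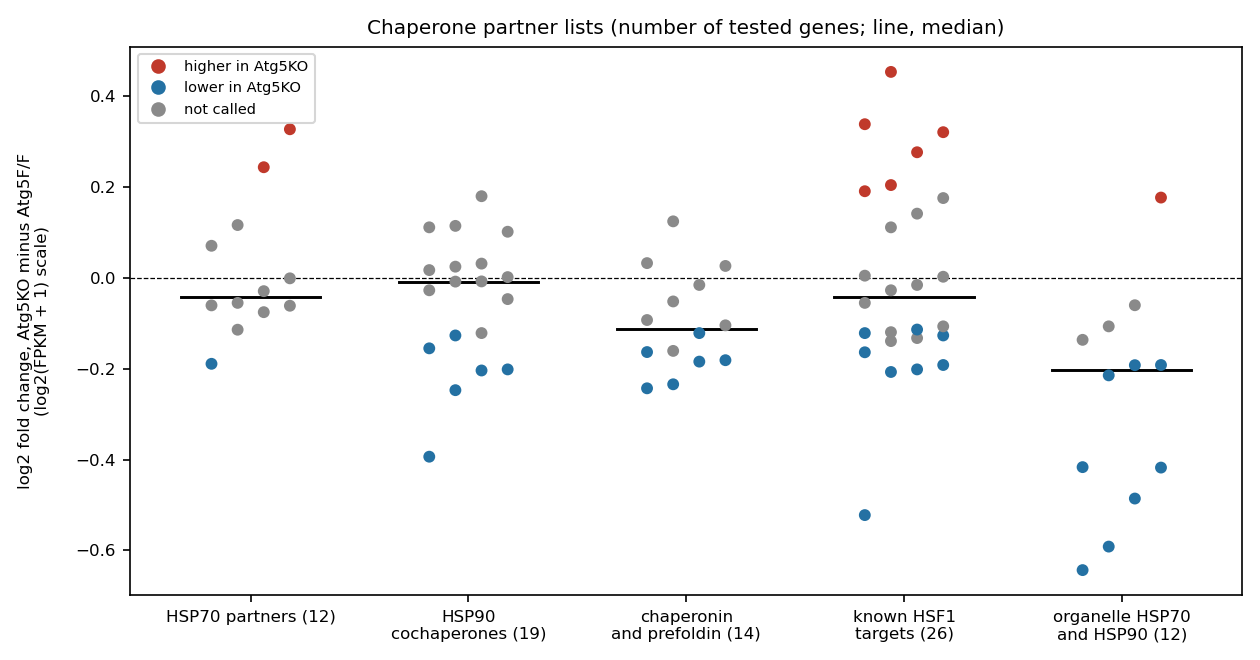
Log2 fold change (vertical axis, KO-labelled minus F/F-labelled, log2(FPKM + 1) scale) of each tested gene of 5 partner lists, with the number of tested genes in the label and the median as a line. Of the 26 HSF1 targets 6 were called higher (red) and 8 lower (blue), beside 21.3% and 17.9% of all tested genes. The medians run from -0.20 for the organelle systems to -0.01 for the HSP90 co-chaperones.

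Gene length moved with the difference. The Spearman correlation of log2 fold change with the length implied by the FPKM values was 0.31 across the 59 members and 0.23 across all 11559 tested genes, which share the same 6 libraries and are not independent. The median implied length was 3005 bases for the higher, 2375 bases for the lower and 2461 bases for the other tested members. Within libraries, the correlation of a gene's deviation from its mean with length was -0.23 to -0.16 in the F/F-labelled ones and 0.11, 0.04 and 0.34 in KO-labelled libraries 1 to 3. With each library's trend on length removed, the counts were 13 higher and 10 lower, and the median over the members was 5.2e-04. The called members were not all the same, since 3 mitochondrial DNAJ genes were lower there rather than 4.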

How the data were processed

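The authors deposited 1 table with an FPKM value per gene and library, and the authors' log2 fold change, p-value, FDR and ranking score. The tools for the stranded mRNA libraries, per the submitters' processing notes, were HISAT2 2.1.0 for alignment to GRCm38 (mm10), Trimmomatic 0.35, bcl2fastq, featureCounts 1.4.6 and edgeR. Which annotation and strand setting were used, and how multi-mapping reads were counted, is not given. The authors' adjusted p column behaves as an unadjusted p-value, so the FDR column was used.

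Reads were recovered from the FPKM steps: 18296 of 18296 genes above 0 (100%) came out whole within 2.0e-04 reads. The main test was limma 3.58.1 (R 4.3.3, eBayes with a variance trend, two-sided) on log2(FPKM + 1) of the 11559 genes reaching 1 FPKM in 3 or more libraries, with Benjamini-Hochberg adjustment over all of them. It was tested on simulated data. Alternatives were 2 other scalings, filters, a pseudocount of 0.1, no variance trend, robust eBayes, voom on the recovered reads, removal of the length trend (loess span 0.5), a replicate block and leaving out each library.

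Members and lists were chosen with earlier results of these data known. Named with values in every library were the 6 members added by symbol, the 12 largest called differences and the 2 most abundant members of each role; from each list, up to 3 called genes. Shared windows and gene coordinates are from GENCODE vM21, and promoters from RefSeq GRCm38.p6. Tables were read with Python 3.11.15, pandas 2.3.3 and numpy 2.4.6.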

Additional observations from a re-analysis of the deposited data

How the results depend on the processing

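Of the 23 called members, 12 kept their call under each of the 17 alternatives run, a stricter adjusted p of 0.01 among them: Dnaja1, Dnaja3, Dnaja4, Dnajb1, Dnajb4, Dnajb6, Dnajc9, Dnajc22, Hsf1, Hspa1b, Hspb1 and Hspb8. Over 996 combinations of member and alternative, 42 calls were lost and 11 gained. Sign changes of members called in the main test or in the alternative numbered 0. Those of members called in neither, such as Hsp90aa1 (-0.03 to 0.07), were not counted. At an adjusted p under 0.01 1449 genes were higher and 1229 lower, with 8 members higher and 5 lower, 2 DNAJ members lower and 2 heat shock members higher. The median over the members was 0.0026 with median-ratio scaling and 5.2e-04 with the length trend removed. Under quantile normalization 2 heat shock members were lower. Leaving out 1 library at a time gave 5 to 9 members lower, 2 to 6 DNAJ members lower and a median of 0.0052 to 0.035. The fewest members lower were 5 without KO-labelled library 1 and 6 without F/F-labelled library 3, and the fewest DNAJ members lower were 2 without either. Dnajc11, Dnajc13, Dnajc19 and Dnajc28 also lost their call without some single library. The cause of these shifts was not tested, beyond the fewer samples that leaving out a library leaves.

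Replicate numbers mark no shared animal in the labels, and deviations of same-numbered libraries from their group means correlated at 0.16, 0.08 and -0.02. With the number as a replicate block, 13 members were higher and 11 lower, 9 and 7 of them DNAJ genes, and 2531 and 2137 of all genes. The 11 members under the filter have no result in the test reported; without a filter Dnajc6 was the 1 of them that was called.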
